A study of Mus musculus with 22 samples.

Results

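Many mouse orthologues of human chromosome 21 (Hsa21) genes are not carried in an extra copy by Ts66Yah mice, and 45 of them are described here out of 55385 genes in the count table. The rule that defines them uses position and orthology, as listed Hsa21 orthologues outside the triplicated segment of mouse chromosome 16 (Mmu16), and no expression value, although earlier results of these data were known when it was set. In GRCm38 coordinates, 26 lie on Mmu10 between 76207222 and 78464975 (*Prmt2* to *Pdxk*), 10 on Mmu17 between 31057675 and 32062865 (*Abcg1* to *Rrp1b*), and 9 on proximal Mmu16 between 75592844 and 81626828 (*Rbm11* to *Ncam2*). All 45 are annotated as protein coding. The last of the Mmu16 genes, *Ncam2*, ends 3.09 Mb before *Mir155*, taken here as the start of the triplicated segment. The authors place the Mmu16 breakpoint of the minichromosome before *Mir155*.

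Down syndrome is trisomy of Hsa21, whose genes are spread in the mouse over conserved blocks on Mmu16, Mmu17 and Mmu10. Segmental trisomy models carry an extra copy of some of these blocks and keep the usual pair of the others, so the Mmu10 and Mmu17 genes are a part of the Hsa21 gene set that a Ts66Yah mouse does not model by dosage. Among them are genes that are well known in Down syndrome research, such as *Cbs*, which makes cystathionine from homocysteine, *S100b*, a calcium-binding protein of astrocytes, the collagen VI chains *Col6a1* and *Col6a2*, and *Pcnt*, a scaffold of the centrosome.

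RNA-Seq read counts were available from 2 brain regions, hippocampus (HIP) and entorhinal cortex (EC), of 11 male mice aged 5 to 6 months, 5 wild-type (wt) and 6 Ts66Yah littermates, which gave 22 libraries. Ts66Yah mice carry a minichromosome with the distal part of Mmu16, obtained from the Ts65Dn minichromosome by a CRISPR/Cas9 deletion of its centromeric Mmu17 part. The line goes back to 1 founder, and both genotypes were bred on a mixed background of C57BL/6 and C3H. Each mouse was a separate animal and gave 1 library per region. Library totals ranged from 25.9 to 50.1 M counts, with a median of 34.7 M.

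The labels were checked on the triplicated segment itself. Over the segment genes tested, the median log2 ratio to the wt mean lay between 0.53 and 0.58 in the 6 Ts66Yah HIP libraries and between 0.50 and 0.60 in the 6 Ts66Yah EC libraries, whereas it lay between -0.04 and 0.01 in the wt libraries of both regions. Every Ts66Yah library therefore showed the extra dosage. The regions were told apart by their markers, with 5 of 6 hippocampal neuron markers higher in HIP and 5 of 6 cortical neuron markers higher in EC of each genotype. All 8 choroid plexus markers and all 6 oligodendrocyte markers were higher in HIP of each genotype.

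The members covered a wide range of levels. Mean CPM (read counts scaled to a common library size, with TMM factors) ranged from 0.208 to 290.0 in the wt HIP and from 1.09 to 302 in the wt EC. Per kilobase of exon, the only scale used here to compare genes, *S100b* and *Rrp1*, a ribosome biogenesis factor, had the highest mean level in all 4 groups. In the wt HIP, *S100b* stood at 92.3 CPM per kb and *Rrp1* at 81.4, ahead of *Pfkl* with 43.5 (the liver-type phosphofructokinase), *Agpat3* with 35.9 (an acyltransferase of phospholipid synthesis) and *Sumo3* with 30.5 (a ubiquitin-like modifier). *Chodl*, a C-type lectin of the cell surface, was lowest in all 4 groups. It was the sole member with a library at 0 counts, whereas the other 44 were detected in all 22 libraries.

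The first question was whether these disomic genes differed between Ts66Yah and wt mice. In HIP, 44 of the 45 passed the filter on low counts (*Chodl* did not) and 0 were past an adjusted p of 0.05 by edgeR's quasi-likelihood test, against 0.591% of the 18452 genes tested (0.439% higher and 0.152% lower). Of the 109 genes called in HIP, 58 lay in the triplicated segment, so this share is not that of disomic genes alone. At an unadjusted p under 0.05 there were 6 members, against 11.9% of all genes. DESeq2 called 3 of them (*S100b*, *Pcnt* and *Cbs*), against 357 of 18452 genes, and limma voom 0, against 111. The members' median log2 fold change was 0.01 with 24 of 44 above 0, and their median absolute log2 fold change was 0.07 against 0.09 over all genes. In EC all 45 were tested and 0 were past the threshold, against 0.283% of 17658 genes (0.272% higher and 0.0113% lower). Of the 50 genes called in EC, 45 lay in the triplicated segment, so most of this share came from triplicated genes. There, 4 members had an unadjusted p under 0.05 against 6.25% of all genes. DESeq2 called *Cbs* alone, against 107 of 17658 genes, and limma voom 0, against 50. The members' median log2 fold change was -0.01, and their median absolute value was 0.06 against 0.09 over all genes.

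**Figure D1:**
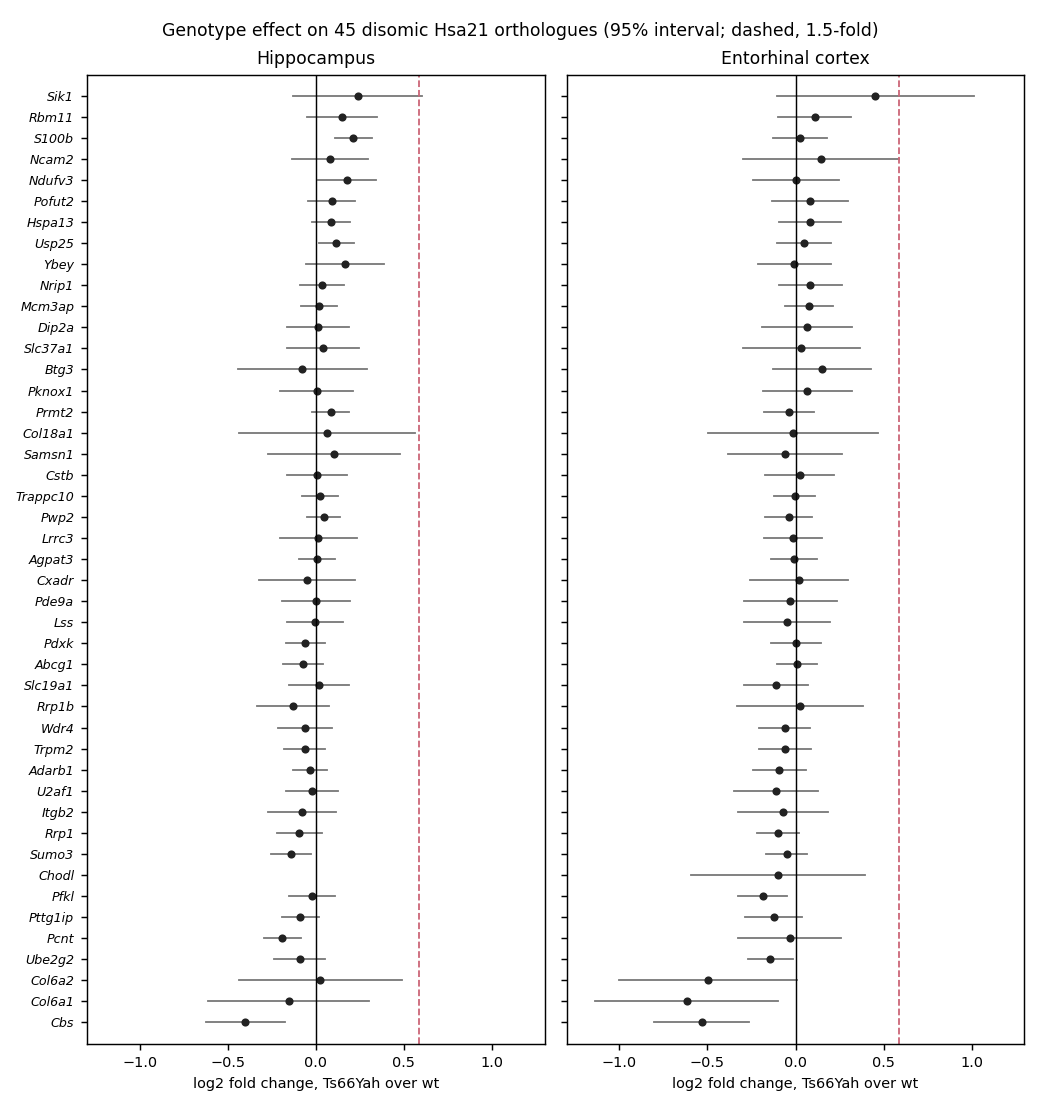
Log2 fold change of Ts66Yah over wt for each of the 45 genes (points) with its 95% confidence interval from edgeR (lines), in the hippocampus (left, 44 genes) and the entorhinal cortex (right, 45 genes). The solid line marks no difference and the dashed line a 1.5-fold increase. Most points sit close to 0, *Cbs* lies lowest in HIP at -0.40, and the *Sik1* interval crosses the dashed line in both regions.

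An extra copy would predict a 1.5-fold level, and the members were tested against that value as well. In HIP, 43 of the 44 were below 1.5-fold at an adjusted p under 0.05, against 82.3% of all genes tested, and in EC 43 of the 45, against 81.7%. In the same fits, 12 of 101 genes of the triplicated segment were below 1.5-fold in HIP and 8 of 93 in EC, and their median log2 fold changes were 0.59 and 0.57. The 95% interval lay wholly within a 1.5-fold change up or down for 41 members in HIP and 39 in EC. *Sik1*, a salt-inducible kinase, could not be told apart from 1.5-fold in either region (adjusted p = 0.0725 in HIP and 0.634 in EC, edgeR). Its log2 fold change was 0.24 in HIP and 0.45 in EC, the highest of the tested members in each region. The upper 95% limits were 0.60 and 1.01, and *Sik1* was not past the threshold against no change either. *Ncam2*, a neural cell adhesion molecule, could not be told apart from 1.5-fold in EC (adjusted p = 0.0596, edgeR). *Col18a1*, a basement membrane collagen, was next to the limit in HIP, with an adjusted p of 0.0499.

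By position, the median log2 fold changes of the Mmu10, Mmu16 and Mmu17 genes were 0.01, 0.08 and -0.01 in HIP and -0.04, 0.08 and 0.01 in EC. The other annotated genes that lie between these members were measured too. Of 29 such neighbours tested in HIP and 23 in EC, 0 were past the threshold by edgeR, with 3 and 1 at an unadjusted p under 0.05.

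The members closest to the threshold in HIP belong to signalling, cell organisation and sulphur amino acid metabolism. *S100b* (ENSMUSG00000033208, Mmu10) had 145, 137, 133, 131 and 138 CPM in the 5 wt HIP libraries, and a lowest value of 145, a median of 160.3 and a highest value of 173 in the 6 Ts66Yah HIP libraries. Apart from wt replicate 1, which lay just above the lowest Ts66Yah value (replicate 1), the wt libraries lay below all Ts66Yah ones. The Ts66Yah level was 1.16-fold that of wt (95% interval of the fold 1.08 to 1.25), with an adjusted p of 0.0781 by edgeR. In EC the same gene ranged from 159 to 185 CPM in wt and from 158 to 210.4 in Ts66Yah, with a log2 fold change of 0.03 (SE 0.07). The summed level of 6 astrocyte markers overlapped between genotypes in HIP, at 4031 to 4637 CPM in wt and 4121 to 4513 in Ts66Yah. Most of this sum came from 1 marker, *Slc1a2*, with means of 2760 CPM in wt and 2795 in Ts66Yah. The log2 fold changes of the 6 markers ran from -0.19 to 0.18, with 3 above 0. By edgeR 0 of 6 were past the threshold, and 1 had an unadjusted p under 0.05. In bulk tissue, a change in the number of cells of a type and a change in RNA per cell cannot be told apart.

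*Pcnt* (ENSMUSG00000001151, Mmu10), the pericentrin gene, was the sole member whose HIP values did not overlap between genotypes, against 1.87% of all genes tested. The wt HIP libraries had 37.3, 42.0, 42.4, 38.1 and 39.1 CPM, and the Ts66Yah HIP libraries ran from 32.9 over a median of 35.2 to 35.6. All Ts66Yah values were thus below the lowest wt value, by a small margin. Ts66Yah differed from wt by -0.19 on the log2 scale (SE 0.05, adjusted p = 0.128, edgeR). In EC, where the values ranged from 27.6 to 47.8 CPM in wt and from 26.8 to 41.5 in Ts66Yah, it was -0.03 (SE 0.14). There, 0 members had values without overlap, against 0.957% of all genes.

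*Cbs* (ENSMUSG00000024039, Mmu17), the cystathionine beta-synthase gene, had the lowest log2 fold change in HIP and the smallest p in EC. In the wt HIP it had 24.8, 23.6, 28.6, 29.8 and 23.3 CPM, and in the Ts66Yah HIP a lowest value of 16.6, a median of 18.4 and a highest value of 25.0. In the wt EC it had 20.5, 19.3, 20.9, 21.7 and 21.4 CPM, and in the Ts66Yah EC a lowest value of 11.2, a median of 14.3 and a highest value of 20.1. In both regions 5 of the 6 Ts66Yah libraries lay below every wt library, and the exception was each time Ts66Yah replicate 5. The log2 fold change was -0.40 (SE 0.10, adjusted p = 0.137) in HIP and -0.53 (SE 0.13, adjusted p = 0.186) in EC by edgeR. Without Ts66Yah replicate 5, the animal that went against the difference, these values were -0.48 (adjusted p = 0.0326) and -0.65 (adjusted p = 0.00585). With any other 1 animal left out, *Cbs* was not past the threshold. The adjusted p was then 0.0984 to 0.340 in HIP and 0.252 to 0.480 in EC by edgeR. Replicate 5 was singled out by its *Cbs* values, so the p without it is no separate test of the difference. That animal was not an exception for the triplicated segment, with median log2 ratios to wt of 0.58 in HIP and 0.50 in EC.

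Because both regions came from the same mice, the counts of each animal were also summed over its 2 libraries. Over these 11 animals, 0 members were past the threshold by edgeR, against 0.573% of 20233 genes, and *Cbs* stood at -0.44 on the log2 scale (SE 0.10, adjusted p = 0.100). Without Ts66Yah replicate 5, again singled out by its own *Cbs* values, the adjusted p was 0.00423. The animal numbers in the labels fall into a lower and a higher range, with wt replicate 1 in neither and therefore left out here, and the *Cbs* difference had the same sign within both. In the lower range, with 2 wt and 2 Ts66Yah mice, the difference of mean log2 CPM (Ts66Yah minus wt) was -0.28 in HIP and -0.39 in EC. In the higher range, with 2 wt and 4 Ts66Yah mice, it was -0.50 in HIP and -0.67 in EC. For the other members just described, these differences in the lower and the higher range were 0.27 and 0.22 for *S100b* and -0.31 and -0.13 for *Pcnt* in HIP. The partner enzyme *Cth*, which splits cystathionine into cysteine, had genotype log2 fold changes of -0.02 in HIP and 0.10 in EC, neither past the threshold.

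The other members with small p-values in EC were *Pfkl* and *Col6a1*. *Pfkl* (ENSMUSG00000020277, Mmu10) had 197, 224, 253, 224 and 236 CPM in the wt EC and ran from 188 over a median of 199.5 to 212 in the Ts66Yah EC. Only wt replicate 1 fell inside the Ts66Yah range. On the log2 scale the difference was -0.19 (SE 0.06, adjusted p = 0.599, edgeR), against -0.02 (SE 0.06) in HIP. Within the lower and the higher range of animal numbers the EC difference of mean log2 CPM was -0.23 and -0.22, again without wt replicate 1.

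*Col6a1* (ENSMUSG00000001119, Mmu10), which encodes the alpha 1 chain of collagen VI, had 13.6, 15.2, 11.7, 14.3 and 9.75 CPM in the wt EC, and a lowest value of 4.97, a median of 7.20 and a highest value of 14.7 in the Ts66Yah EC. Here 4 of the Ts66Yah libraries were below every wt library, and Ts66Yah replicate 3 was above 4 of the 5 wt ones. The log2 fold change was -0.62 (SE 0.24, adjusted p = 0.709, edgeR). Within the lower and the higher range of animal numbers the difference of mean log2 CPM was -1.03 and -0.46. Its partner chain *Col6a2*, for which the gene lies on the same stretch of Mmu10, stood at -0.50 (SE 0.24, adjusted p = 0.812). Fibroblast markers of the meninges varied between libraries as well. The 8 markers had a median genotype log2 fold change of -0.37 in EC. By edgeR 0 were past the threshold, and also 0 had an unadjusted p under 0.05. Their summed level ran from 633 to 1208 CPM in the wt EC and from 344 to 1671 in the Ts66Yah EC. Most of this sum came from 1 marker, *Ptgds*, so it mainly follows that gene. *Ptgds* alone ran from 558 to 1120 CPM in the wt EC and from 296 to 1550 in the Ts66Yah EC. Ts66Yah replicate 3, with the highest *Col6a1* and *Col6a2* of its group, also had the highest marker sum, 1671 CPM, and replicate 4, second in both collagens, had the second highest, 1358 CPM. In the wt EC the order differed, as replicate 3 had the highest sum, 1208 CPM, with 11.7 CPM of *Col6a1*. Its replicate 1 had the lowest sum, 633 CPM, with 13.6 CPM of *Col6a1*. In HIP the median of the markers was 0.27 and *Col6a1* stood at -0.16 (SE 0.21). The part of such cells in the *Col6a1* values was not tested.

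**Figure D2:**
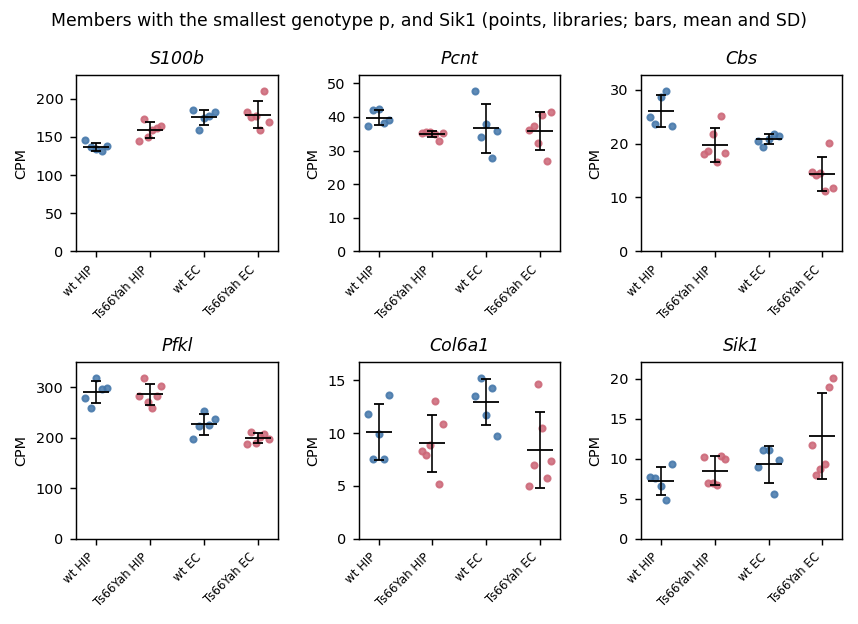
CPM per library (points) with the group mean and SD (bars) for the members with the smallest genotype p-values and for *Sik1*, in the order wt HIP, Ts66Yah HIP, wt EC and Ts66Yah EC (5, 6, 5 and 6 libraries). *Cbs* is lower in 5 of the 6 Ts66Yah libraries than in any wt library of the same region, and 2 Ts66Yah EC libraries stand above the rest in *Sik1*.

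The remaining members at an unadjusted p under 0.05 were *Sumo3* (-0.14, SE 0.05), *Usp25*, a ubiquitin protease (0.12, SE 0.05), and *Ndufv3*, a subunit of respiratory complex I (0.18, SE 0.08), in HIP, and *Ube2g2*, a ubiquitin-conjugating enzyme (-0.14, SE 0.06), in EC, all as log2 fold changes and none past the threshold. By role, the median log2 fold changes in HIP were 0.03 for the 7 tested adhesion and matrix genes, 0.01 for the 13 transcription and RNA genes, 0.01 for the 5 protein turnover genes, 0.01 for the 10 signalling and cell organisation genes and -0.0047 for the 9 metabolism and transport genes. In EC the corresponding medians ran from -0.04 for the adhesion and matrix genes to 0.02 for protein turnover.

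Relatives and partners of the members, for example the other collagen IV and VI chains, phosphofructokinases, ADAR enzymes and SUMO genes, were counted for comparison. Of 38 such genes, 1 was past the threshold in HIP, the basement membrane collagen *Col4a1* (log2 fold change 0.45, adjusted p = 0.0225, edgeR), and 0 in EC, where 4 had an unadjusted p under 0.05.

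Whether a member's genotype difference itself changed between the regions was tested by the interaction of genotype and region over all 22 libraries. By edgeR 0 of 45 members passed, as did 0 of 19074 genes in all (0%), and DESeq2 also called 0. At an unadjusted p under 0.05 there was 1 member, *S100b*, among 388 genes (2.03%). Its genotype effect in EC minus that in HIP was -0.18 on the log2 scale (SE 0.09, p unadjusted = 0.0435, edgeR). The genotype effects of *Pcnt*, *Cbs*, *Pfkl* and *Col6a1* were not shown to differ between regions.

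The regional difference between EC and HIP was much larger than the genotype difference for many of these genes. In wt mice, 24 of the 45 were past the threshold, 16 of them with EC above HIP (23.4% of all genes) and 8 with HIP above EC (24.3%), against 47.7% of 17935 genes called in either direction. In Ts66Yah mice, a separate set of animals, 26 were past it, 18 with EC above HIP (26.4% of all genes) and 8 with HIP above EC (27.5%), against 54% of 18043 genes. The share of members called was thus near that of all genes. In both genotypes with the same direction there were 22 members, against 42.7% of the genes tested in both, 16 of them higher in EC and 6 in HIP. With the animal as a block, which uses the pairing of the regions within each mouse, 25 members passed in both genotypes, 17 higher in EC and 8 in HIP, with *Adarb1*, *Rrp1b* and *Sik1* added. Over all genes the block raised the calls too, to 10074 of 19318 in wt and 11284 of 19639 in Ts66Yah. In 1 genotype alone the block further added *Slc19a1* and *Lss* in wt, both higher in EC (adjusted p = 0.00887 and 0.0489, edgeR), and *Col18a1* in Ts66Yah, higher in HIP (log2 fold change -0.53, adjusted p = 0.00897), and it removed no call in either genotype.

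**Figure D3:**
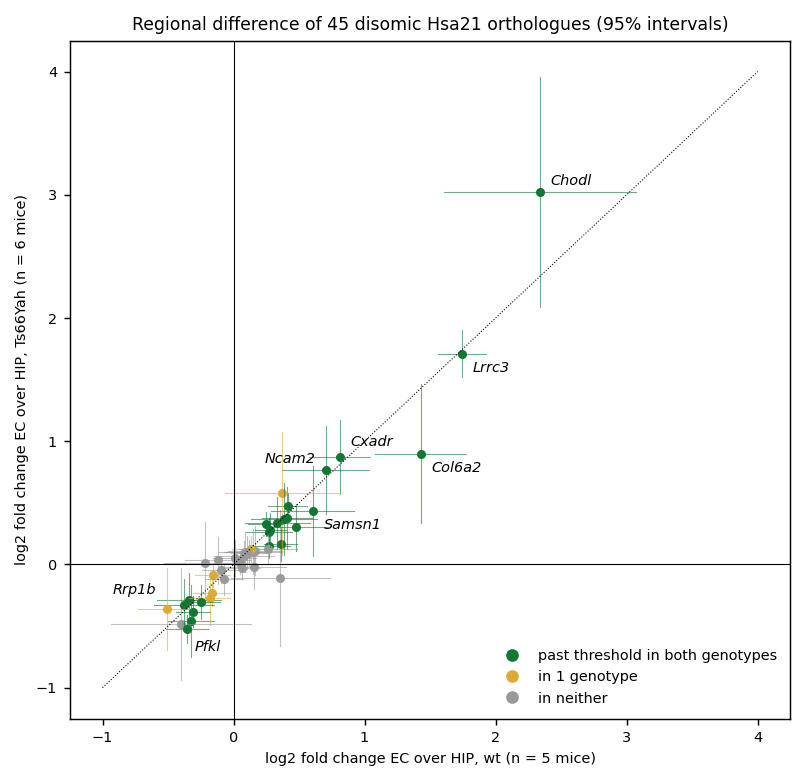
Log2 fold change of EC over HIP in wt mice (horizontal, 5 animals) and in Ts66Yah mice (vertical, 6 animals) for each of the 45 genes, with 95% confidence intervals, coloured by whether the gene was past the threshold in both genotypes (22), in 1 (6) or in neither (17). The dotted line marks equal values. *Chodl* and *Lrrc3* stand farthest to the upper right in both sets of mice.

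By role, 5 of the 8 adhesion and matrix genes were higher in EC of both genotypes (*Chodl*, *Col6a2*, *Cxadr*, *Itgb2* and *Ncam2*). *Chodl* entered these fits through its EC libraries, where it is high. Of the 10 signalling and cell organisation genes, 5 were higher in EC of both genotypes (*Lrrc3*, *Pde9a*, *S100b*, *Samsn1* and *Trpm2*). Over all genes, 23.4% were called higher in EC in wt and 26.4% in Ts66Yah. Among metabolism and transport genes, *Pdxk* and the sugar phosphate transporter *Slc37a1* were higher in EC, and *Cbs* and *Pfkl* in HIP. Protein turnover was split as well, with *Sumo3* and the chaperone *Hspa13* higher in EC, and *Usp25* and *Ube2g2* higher in HIP. Of the 13 transcription and RNA genes, *Prmt2*, an arginine methyltransferase, and *Ybey*, an endoribonuclease, were higher in EC, and the homeobox gene *Pknox1* in HIP. *Dip2a* completed the 6 members that were higher in HIP.

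Upstream sequences are shown for the genes that these comparisons turn on most, *Lrrc3* and *Chodl* with the largest regional differences and *Cbs* with the smallest genotype p in EC. Each is the run of 250 bases before the RefSeq start of the gene on GRCm38.p6, written 5′ to 3′ on the gene's own strand. They are at chr10:77902537-77902786 (minus strand) for *Lrrc3*, chr16:78930698-78930947 (plus strand) for *Chodl* and chr17:31637206-31637455 (minus strand) for *Cbs*. Capitals mark 3 short motifs searched on both strands, the GC box (GGGCGG or CCGCCC), the CCAAT box (CCAAT or ATTGG) and a TATA motif (TATAA or TTATA).
Lrrc3: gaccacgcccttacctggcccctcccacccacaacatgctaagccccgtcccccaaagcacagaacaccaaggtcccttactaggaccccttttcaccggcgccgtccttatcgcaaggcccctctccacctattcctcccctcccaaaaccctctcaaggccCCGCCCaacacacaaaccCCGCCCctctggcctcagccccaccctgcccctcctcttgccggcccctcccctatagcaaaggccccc
Chodl: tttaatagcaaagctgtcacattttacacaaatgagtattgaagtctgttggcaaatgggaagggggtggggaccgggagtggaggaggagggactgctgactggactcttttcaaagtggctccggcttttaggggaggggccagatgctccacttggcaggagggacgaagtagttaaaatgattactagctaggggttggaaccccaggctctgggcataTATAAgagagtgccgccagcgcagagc
Cbs: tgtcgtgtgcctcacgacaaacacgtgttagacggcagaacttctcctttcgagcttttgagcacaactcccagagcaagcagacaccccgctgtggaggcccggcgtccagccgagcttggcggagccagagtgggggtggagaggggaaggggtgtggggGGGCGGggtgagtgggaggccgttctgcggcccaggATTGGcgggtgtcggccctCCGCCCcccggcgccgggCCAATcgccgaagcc
The *Lrrc3* window held 2 GC boxes and neither of the other motifs. In the *Chodl* window there was 1 TATA motif close to its end, and no GC or CCAAT box. For *Cbs* 2 GC boxes and 2 CCAAT boxes were found, and no TATA motif. Among all 32851 RefSeq windows of this length, 32.7% held a GC box, 33.8% a CCAAT box and 22.8% a TATA motif, and among the 44 windows of 35 members the shares were 61.4%, 29.5% and 15.9%. These are matches of letters and no measure of binding.

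*Lrrc3* (ENSMUSG00000051652, Mmu10), a leucine-rich repeat membrane protein, had the most certain regional difference. Its wt values were 7.86, 6.23, 7.30, 7.18 and 8.14 CPM in HIP and 24.0, 24.2, 25.9, 22.8 and 25.7 in EC. In Ts66Yah mice it ran from 6.72 over a median of 7.05 to 9.22 in HIP, and from 20.1 over a median of 24.9 to 26.4 in EC. The regions were far apart in every animal of both genotypes. The EC level was 3.35-fold that of HIP in wt (log2 1.74, SE 0.08, adjusted p = 7.85e-09) and 3.27-fold in Ts66Yah (log2 1.71, SE 0.09, adjusted p = 1.97e-09, edgeR).

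*Chodl* (ENSMUSG00000022860, Mmu16) differed by a larger factor at a far lower level. In wt mice it had 0.138, 0.365, 0.235, 0.189 and 0.112 CPM in HIP, from 4 to 15 counts, and 0.699, 0.935, 1.56, 1.41 and 0.852 in EC, from 23 to 65 counts. In the Ts66Yah HIP it ranged from 0 to 10 counts with 0 in replicates 1 and 2, and in the Ts66Yah EC from 23 to 40 counts. No HIP library of either genotype reached the lowest EC library. Fitted log2 fold changes were 2.34 (SE 0.34, adjusted p = 9.14e-05) in wt and 3.02 (SE 0.44, adjusted p = 3.88e-05) in Ts66Yah by edgeR. At such counts the fitted fold depends on the prior count. *Chodl* did not pass the low-count filter in HIP alone and entered the regional fits through its EC libraries, where it is high. These p-values are therefore no separate support for the difference. *Chodl* is counted among the members called in both genotypes with this limit.

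*Cxadr* (ENSMUSG00000022865, Mmu16), the coxsackievirus and adenovirus receptor of cell junctions, had 19.8, 21.4, 16.1, 20.5 and 22.7 CPM in the wt HIP and 35.7, 33.6, 30.1, 42.6 and 33.6 in the wt EC. Its Ts66Yah values ran from 16.04 over a median of 18.3 to 27.1 in HIP and from 24.2 over a median of 36.6 to 41.6 in EC. The wt regions did not overlap, whereas in Ts66Yah the highest HIP library, replicate 4, passed the lowest EC library, replicate 5. The EC level was 1.75-fold that of HIP in wt (log2 0.81, SE 0.11, adjusted p = 4.56e-05) and 1.83-fold in Ts66Yah (log2 0.87, SE 0.14, adjusted p = 9.95e-05, edgeR).

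*Ncam2* (ENSMUSG00000022762, Mmu16) had 81.7, 82.3, 62.8, 79.9 and 68.6 CPM in the wt HIP and 125, 112, 132, 163 and 79.7 in the wt EC. In Ts66Yah mice it ran from 62.3 over a median of 82.9 to 89.6 in HIP and from 66.9 over a median of 148 to 154 in EC. In each genotype replicate 5 was the low EC library, and these 2 libraries alone overlapped with the HIP. The EC was higher in 5 of 5 wt and 6 of 6 Ts66Yah mice, with log2 fold changes of 0.71 (SE 0.15, adjusted p = 0.00207) and 0.77 (SE 0.17, adjusted p = 0.00132) by edgeR.

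*Col6a2* (ENSMUSG00000020241, Mmu10) had 4.65, 3.94, 4.14, 3.47 and 6.38 CPM in the wt HIP and 12.1, 9.86, 11.7, 14.8 and 12.2 in the wt EC. Its Ts66Yah range was 3.41 to 7.54 CPM with a median of 4.07 in HIP and 5.38 to 15.4 with a median of 7.53 in EC. The wt regions were fully apart, and the Ts66Yah ones overlapped although the EC was higher in 6 of 6 mice. The log2 fold change was 1.43 (SE 0.16, adjusted p = 1.16e-05) in wt and 0.90 (SE 0.26, adjusted p = 0.0100) in Ts66Yah, and the difference between them, -0.52 (SE 0.34), was not past the threshold of the interaction (unadjusted p = 0.142, edgeR). *Col6a1*, which forms the same collagen, gave 0.36 (SE 0.17, adjusted p = 0.109) in wt and -0.11 (SE 0.26, adjusted p = 0.742) in Ts66Yah, and the partner chain *Col6a3* gave 0.00 in wt and, past the threshold, -1.41 in Ts66Yah. The meningeal markers moved here too, as 5 of 8 were higher and 1 lower in the wt EC, against 0 higher and 1 lower in the Ts66Yah EC. Their part in the *Col6a2* difference was not tested.

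**Figure D4:**
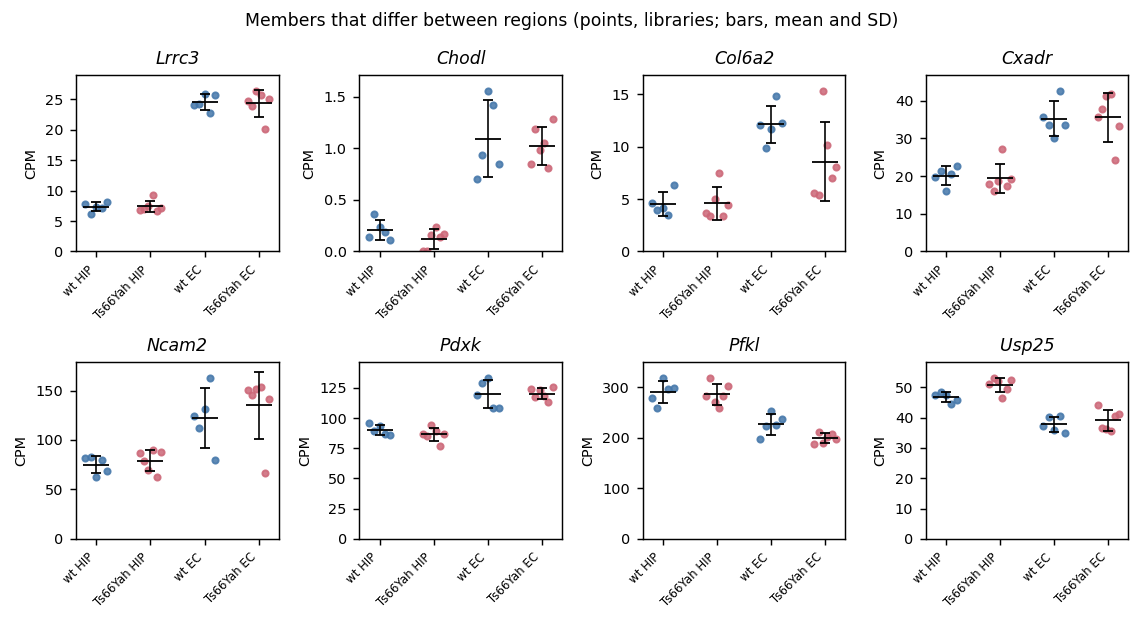
CPM per library (points) with the group mean and SD (bars) for 8 members that differed between the regions, in the order wt HIP, Ts66Yah HIP, wt EC and Ts66Yah EC (5, 6, 5 and 6 libraries). *Lrrc3* and *Chodl* show no overlap between regions, *Ncam2* has 1 low EC library in each genotype, and *Pfkl* and *Usp25* are higher in HIP.

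Several enzymes and signalling genes differed by less. *Pdxk* (ENSMUSG00000032788, Mmu10), the kinase that makes the active form of vitamin B6, had 95.7, 89.5, 93.1, 86.6 and 86.3 CPM in the wt HIP and 119.5, 129, 133, 108 and 109 in the wt EC. In Ts66Yah mice its highest HIP value was 94.1 and its lowest EC value 113. The regions were apart in both genotypes, with log2 fold changes of 0.41 (SE 0.07, adjusted p = 0.000333) and 0.47 (SE 0.05, adjusted p = 1.49e-06) by edgeR. Of the 50-base windows of *Pdxk*, 39.7% are shared with other genes, nearly all of them with the antisense gene *4921516A02Rik*. Whether the counting used strand is not stated, so reads of the shared stretches cannot be told apart here.

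*Pde9a* (ENSMUSG00000041119, Mmu17), a cGMP phosphodiesterase, had 7.20, 8.11, 7.77, 8.31 and 7.67 CPM in the wt HIP and 11.7, 9.59, 9.90, 10.8 and 9.87 in the wt EC. The log2 fold change was 0.41 (SE 0.09, adjusted p = 0.00183), and 0.38 (SE 0.12, adjusted p = 0.0144) in Ts66Yah, where the ranges overlapped. *Ybey* (ENSMUSG00000033126, Mmu10) had 4.62, 3.75, 4.08, 5.17 and 4.17 CPM in the wt HIP and 5.29, 6.42, 6.21, 6.24 and 6.05 in the wt EC. It gave 0.48 (SE 0.11, adjusted p = 0.00352) in wt and 0.30 (SE 0.09, adjusted p = 0.00999) in Ts66Yah by edgeR, without overlap in either. Of the *Ybey* windows, 12.3% are shared, mostly with *2610028H24Rik*, which overlaps it on the opposite strand.

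Several members known from microglia and other immune cells, the integrin beta 2 chain *Itgb2*, the adaptor *Samsn1* and the cation channel *Trpm2*, were all higher in EC. *Samsn1* (ENSMUSG00000022876, Mmu16) had 1.41, 1.48, 1.24, 1.40 and 1.34 CPM in the wt HIP and 1.98, 1.69, 2.32, 2.46 and 1.97 in the wt EC. Its Ts66Yah values ran from 1.19 to 2.22 CPM in HIP and from 1.59 to 2.34 in EC, where the ranges overlapped. The log2 fold change was 0.60 (SE 0.15, adjusted p = 0.00424) in wt and 0.43 (SE 0.17, adjusted p = 0.0442) in Ts66Yah by edgeR. The Ts66Yah call was lost when any 1 of replicates 1, 3, 4, 5 and 6 was left out (adjusted p up to 0.171). *Itgb2* gave log2 fold changes of 0.33 (SE 0.11) in wt and 0.34 (SE 0.10) in Ts66Yah, and *Trpm2* gave 0.28 (SE 0.06) in both. The microglial markers were higher in EC as well, 5 of 8 in wt and 7 of 8 in Ts66Yah, with a summed level of 309.7 to 426 CPM in the wt HIP, 392 to 523 in the wt EC, 309.9 to 353 in the Ts66Yah HIP and 399 to 462 in the Ts66Yah EC. Their part in the *Itgb2*, *Samsn1* and *Trpm2* values was not tested.

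*S100b* was higher in EC by 0.36 in wt (SE 0.06, adjusted p = 0.000200) and by 0.17 in Ts66Yah (SE 0.06, adjusted p = 0.0379, edgeR), in 5 of 5 and 5 of 6 mice. Astrocyte markers were split, with 3 higher and 1 lower of 6 in the wt EC and 3 higher and 2 lower in the Ts66Yah EC.

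In the opposite direction, *Pfkl* had 279, 259, 318, 297 and 298 CPM in the wt HIP against 197, 224, 253, 224 and 236 in the wt EC. In the Ts66Yah HIP it ran from 258 over a median of 283 to 318, well above the EC range of 188 to 212. The regions did not overlap in either genotype (without overlap in the same way were 35.4% of all genes in wt and 32.2% in Ts66Yah), and the log2 fold change was -0.35 (SE 0.07, adjusted p = 0.00163) in wt and -0.52 (SE 0.05, adjusted p = 1.18e-06) in Ts66Yah by edgeR. The other phosphofructokinases went the other way, as *Pfkm*, the muscle form, was higher in EC by 0.30 and 0.22, and *Pfkp*, the platelet form, by 0.67 and 0.60, all past the threshold.

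*Cbs* was lower in EC by log2 values of -0.32 in wt (SE 0.08, adjusted p = 0.00545) and -0.46 in Ts66Yah (SE 0.13, adjusted p = 0.00998, edgeR), and it was lower in all 11 mice. Again the next enzyme of the pathway, *Cth*, went the other way, with 0.43 and 0.54, both past the threshold. *Usp25* (ENSMUSG00000022867, Mmu16) was lower in EC by -0.31 (SE 0.06, adjusted p = 0.00105) in wt and -0.38 (SE 0.06, adjusted p = 8.71e-05) in Ts66Yah by edgeR, without overlap between regions in either genotype. *Adarb1*, an RNA-editing adenosine deaminase, stood at -0.17 (adjusted p = 0.0557) in wt and -0.23 (adjusted p = 0.00197) in Ts66Yah by edgeR. Of all 38 relatives and partners, 18 were past the threshold in wt (11 higher in EC) and 22 in Ts66Yah (12 higher in EC).

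In 1 genotype alone, *Abcg1*, a cholesterol transporter, and *Rrp1b* were past the threshold in wt, and *Rrp1*, *Sik1*, *Adarb1* and *U2af1*, a splicing factor, in Ts66Yah. With the animal as a block, *Rrp1b* passed in Ts66Yah too, and *Sik1* and *Adarb1* in wt too. None of the 6 was shown to differ between genotypes, since 0 members passed the interaction test. *Abcg1* (adjusted p = 0.0498 in wt) and *Sik1* (adjusted p = 0.0488 in Ts66Yah) were close to the limit. Without the animal block, the 17 members past the threshold in neither were *Agpat3*, *Btg3*, *Col18a1*, *Col6a1*, *Cstb*, *Lss*, *Mcm3ap*, *Ndufv3*, *Nrip1*, *Pcnt*, *Pofut2*, *Pttg1ip*, *Pwp2*, *Rbm11*, *Slc19a1*, *Trappc10* and *Wdr4*.

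As each mouse gave both regions, a member that varied between animals of 1 genotype in both libraries could be told from noise of single libraries. A joint test of the differences between animals within genotype was past the threshold for 2 of 45 members by edgeR, against 6.55% of 20066 genes, and 13 had an unadjusted p under 0.05, against 23.9% of all genes. The shares of members are near those of all genes. Both called members lie on Mmu17. They were *Sik1* (ENSMUSG00000024042, adjusted p = 0.00847) and *Cbs* (adjusted p = 0.0162).

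*Sik1* had 7.76, 7.59, 6.53, 4.80 and 9.37 CPM in HIP and 8.97, 11.1, 11.0, 5.53 and 9.90 in EC of wt replicates 1 to 5. In Ts66Yah replicates 1 to 6 it had 10.2, 6.91, 6.91, 6.75, 10.4 and 9.97 CPM in HIP and 11.7, 7.95, 8.77, 9.31, 18.9 and 20.1 in EC. Ts66Yah replicates 1, 5 and 6 were the 3 highest of their group in both regions, and wt replicate 4 was the lowest of its group in both. The values of the 11 animals spanned 2.16-fold in HIP and 3.63-fold in EC. The high Ts66Yah replicates 5 and 6 both belong to the lower range of animal numbers. In that range the mean was 10.2 CPM in HIP and 19.5 in EC of the 2 Ts66Yah mice, against 7.69 and 9.44 in the 4 of the higher range. The 2 wt mice of each range had means of 7.06 (lower) and 7.09 (higher) in HIP, and of 11.04 and 7.72 in EC. The part of the number range in the differences between animals was not tested. For 8 of the 11 mice, the HIP and EC libraries lay on the same side of their group means.

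*Cbs* spanned 1.79-fold in HIP and 1.94-fold in EC, also with 8 of 11 mice on the same side in both. The Ts66Yah animals carried much of this spread, as replicate 5 was highest and replicate 4 lowest of its group in both regions. Without Ts66Yah replicate 5 the adjusted p of the *Cbs* animal test was 0.203, so this call rests on that mouse, whereas *Sik1* passed without any 1 animal (adjusted p up to 0.0271).

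**Figure D5:**
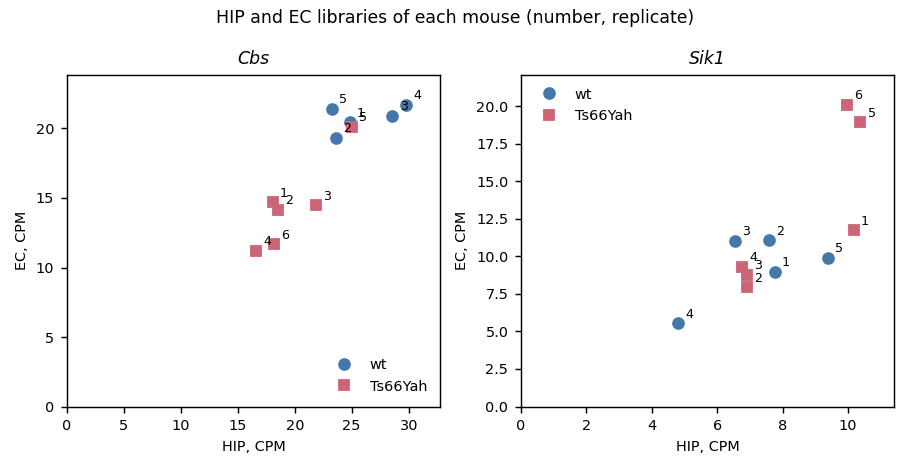
CPM in the HIP library (horizontal) and the EC library (vertical) of each of the 11 mice for *Cbs* (left) and *Sik1* (right), wt as circles and Ts66Yah as squares, numbered by replicate. In *Cbs*, 5 Ts66Yah mice lie below and left of all 5 wt mice and replicate 5 lies among the wt mice, and in *Sik1* Ts66Yah replicates 5 and 6 stand above the rest in EC.

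Some members share sequence or exons with other genes, so their counts are less certain. Besides *Pdxk* and *Ybey*, the share of 50-base windows found in another gene was 30.9% for *Btg3* (mostly *Gm7334* and the overlapping *Cxadr*), 21.7% for *U2af1* (mostly *Gm10232*), 9.16% for *Wdr4*, 8.70% for *Sumo3*, 8.31% for *Slc37a1*, 6.97% for *Samsn1* and 6.03% for *Ube2g2*. For the other members it was at most 4.38%.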

How the data were processed

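The authors deposited raw gene counts for 22 libraries, made from single-end HiSeq reads (poly(A) selection per the labels, while the methods also name a ribosomal depletion kit) with Hisat2 and HTSeq-count on GRCm38 with Ensembl annotation. Demultiplexing with bcl2fastq 2.17.1.14 is named in the submitters' processing notes. Whether HTSeq-count used strand, and the version of the aligner, are not given in the sources used here. Deposited tables of the authors' own comparisons (fold changes and p-values) were not used. All count columns matched a sample.

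Gene positions came from GENCODE M21 (GRCm38), which matched 55144 of 55385 identifiers. Counts were tested with edgeR 4.0.16 (R 4.3.3) by the quasi-likelihood test, with TMM factors, filterByExpr, Benjamini-Hochberg adjustment over all genes tested and a threshold of 0.05. Genotype was fitted per region, region per genotype, and the interaction and the animal test over all libraries. The 1.5-fold test shifted the null hypothesis by an offset. CPM used TMM factors of all 22 libraries. Alternatives were DESeq2 1.42.0, limma voom 3.58.1, RLE factors, no filter, at least 1 CPM in at least 5 libraries, 1 joint fit, replicate and animal-number blocks and leaving out each animal. Counts summed per animal were added after seeing the data. The scripts were tested on simulated data.

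The members and gene lists were chosen with earlier results of these data known. Named in full were the 3 smallest genotype p-values per region, the 8 largest regional differences called in both genotypes with a mean of at least 1 CPM, the members called by the animal test and the member that no filter let through in the HIP, with at most 5 comparison genes. Other members with full statistics, the 5 comparison genes and the markers named singly were chosen after their values were seen.

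Deviations from the group means of the HIP and EC libraries of 1 animal correlated at 0.21 to 0.45, and the animals pair these libraries. Between wt and Ts66Yah animals of the same number the correlation was -0.01 to 0.06 in the HIP and 0.02 to 0.18 in the EC, and these numbers do not mark a shared animal.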

Additional observations from a re-analysis of the deposited data

Results flagged for a closer look

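In groups of 5 or 6 libraries, 56 combinations of a member and a group were examined for a library far from the rest, and 5 had one. Chance flags about 1 in 20 groups. *Ncam2* in Ts66Yah EC replicate 5 was at 66.9 CPM, with the nearest other library of the group at 141. *Pcnt* in the HIP of the same mouse was at 32.9 CPM, with the nearest at 35.0. In the HIP of Ts66Yah replicate 4, *Cxadr* was at 27.1 CPM with the nearest at 19.1, and *Lrrc3* was at 9.22 CPM with the nearest at 7.52. *Ybey* in Ts66Yah EC replicate 1 was at 7.14 CPM, with the nearest at 5.98.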

How the results depend on the processing

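No result reversed under any alternative run. Of the summary counts, 117 values under alternatives stayed within 1.5 times the reported count and 7 did not. DESeq2 called 3 members for genotype in the HIP and 1 in the EC, against 0 and 0 by edgeR. Leaving out 1 animal gave 0 to 1 members in the HIP (*S100b* without Ts66Yah replicate 1, adjusted p = 0.0473, and *Cbs* without Ts66Yah replicate 5), 0 to 1 in the EC (*Cbs* without Ts66Yah replicate 5) and 1 to 4 for the animal test, the 4 without Ts66Yah replicate 4 and the 1 without Ts66Yah replicate 5. It gave 20 to 25 members for region in wt, 20 to 24 in Ts66Yah, 0 for the interaction, and 41 to 44 below 1.5-fold in each region. Of the values for single members, 316 kept their side of the threshold, 7 passed it and 7 lost it. Of the losses, 6 were *Samsn1* between regions in Ts66Yah, among them the fit without a filter (adjusted p = 0.0690).

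The wt and Ts66Yah animals share only a number. With the replicate block, 0 members were called for genotype in either region, and 42 members in the HIP and 44 in the EC were below 1.5-fold. Over all genes, the HIP genotype count was 109 by edgeR, 357 by DESeq2, 58 with the replicate block and 65 with the animal-number range as a block (without wt replicate 1), and the EC count was 50, 107 by DESeq2 and 79 in 1 fit of 22 libraries.

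The number of animals limits what was detectable, and *Chodl* rested on 0 to 15 counts per HIP library.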
